A study of Mus musculus with 21 samples.

Results

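Bortezomib, a proteasome inhibitor, was compared with its DMSO vehicle in hematopoietic stem cells (HSCs) of mice labelled Mx1-Cre;Atg5fl/fl. The comparison takes 6 of the 21 libraries of the series, 3 of each treatment, chosen by their labels, and covers every gene of the deposited count table. HSCs were sorted from bone marrow as CD48- LSK CD150+ cells (LSK: lineage-negative, Sca-1+ and Kit+). All mice of the comparison carried Mx1-Cre and floxed Atg5. One group received 10 mg/kg bortezomib and the other 10% DMSO, each injected retro-orbitally 48 h and 24 h before analysis. The Mx1 promoter, which drives Cre, is induced by interferon, and the labels do not say how or when it was induced, nor the age or sex of the mice. Wild-type (WT) mice given the same 2 treatments, 3 libraries each, enter the same model and serve where the responses of the genotypes are compared. The labels do not state that libraries came from separate animals, so p-values measure the spread between libraries. The libraries are called DMSO 1 to 3 and bortezomib 1 to 3 below.

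The proteasome and autophagy are the main routes by which cells degrade protein. The proteasome is a 20S core of proteolytic subunits, in which bortezomib binds the catalytic subunit encoded by Psmb5, topped by a 19S cap that recognises and unfolds ubiquitin-tagged protein. Autophagy encloses larger cargo, aggregates included, in a membrane that carries lipid-bound LC3 and fuses with the lysosome, and Atg5 is part of the complex that attaches LC3. Cells whose proteasome is blocked can gather misfolded protein into aggresomes, which receptors such as p62, encoded by Sqstm1, hand to autophagy. The comparison asks which genes HSCs change under proteasome inhibition in mice labelled as lacking Atg5.

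Counts of Atg5 (ENSMUSG00000038160.6, chromosome 10, 44268358 to 44364291, GRCm38) were not lower in the libraries labelled as Atg5-/-. Atg5 was at 114, 113 and 107 CPM in DMSO 1 to 3 and at 95.2, 95.4 and 142 CPM in bortezomib 1 to 3. The groups overlapped (log2 fold change -0.01 with SE 0.25, edgeR adjusted p = 0.997). WT DMSO libraries held 56.5 ± 17.4 CPM. CPM are counts scaled to the size of each library, log2 fold changes are fitted, and values after ± are SDs of n = 3 libraries. Each SE is the absolute log2 fold change divided by the square root of the edgeR F statistic. Reads of a deleted exon are not separated from the rest of the gene in these totals, which therefore check nothing about the deletion, and the libraries are called knockout-labelled. Library totals were 15005500 to 26626001 counts. The sort markers were present in all 6 libraries, Kit at 485.9 to 1113 CPM, Ly6a (Sca-1) at 338 to 708 CPM and Slamf1 (CD150) at 48.3 to 69.0 CPM, and Cd48, used to exclude cells, stood at 3.57 to 20.1 CPM. Xist made up 100% of Xist plus Ddx3y counts in bortezomib 1 and at most 3.51% in the other 5 libraries. Within the 6 libraries bortezomib 3 stood apart on the second principal component (-87.6, the others -1.34 to 46.1).

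Of 16149 genes tested, 586 (3.63%) differed between bortezomib and DMSO at an edgeR adjusted p under 0.05, the threshold for every call below. Of these, 326 (2.02%) were higher under bortezomib and 260 (1.61%) lower, 201 and 136 of them by at least 2-fold. The median log2 fold change of all genes tested was 0.003. In 324 of the genes called higher all 3 bortezomib libraries lay above all 3 DMSO libraries, and in 256 of those called lower they lay below. Over all genes tested the share without overlap was 10.6% above and 9.73% below. When each of the 6 libraries was left out in turn, 155 of the 586 genes, 104 higher and 51 lower, kept their call every time. The total fell to 182 calls without DMSO 2, 240 without bortezomib 2 and 303 without DMSO 1, and rose to 1040 without bortezomib 3. With the Xist share as a covariate 421 of the 586 genes kept their call.

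**Figure D1:**
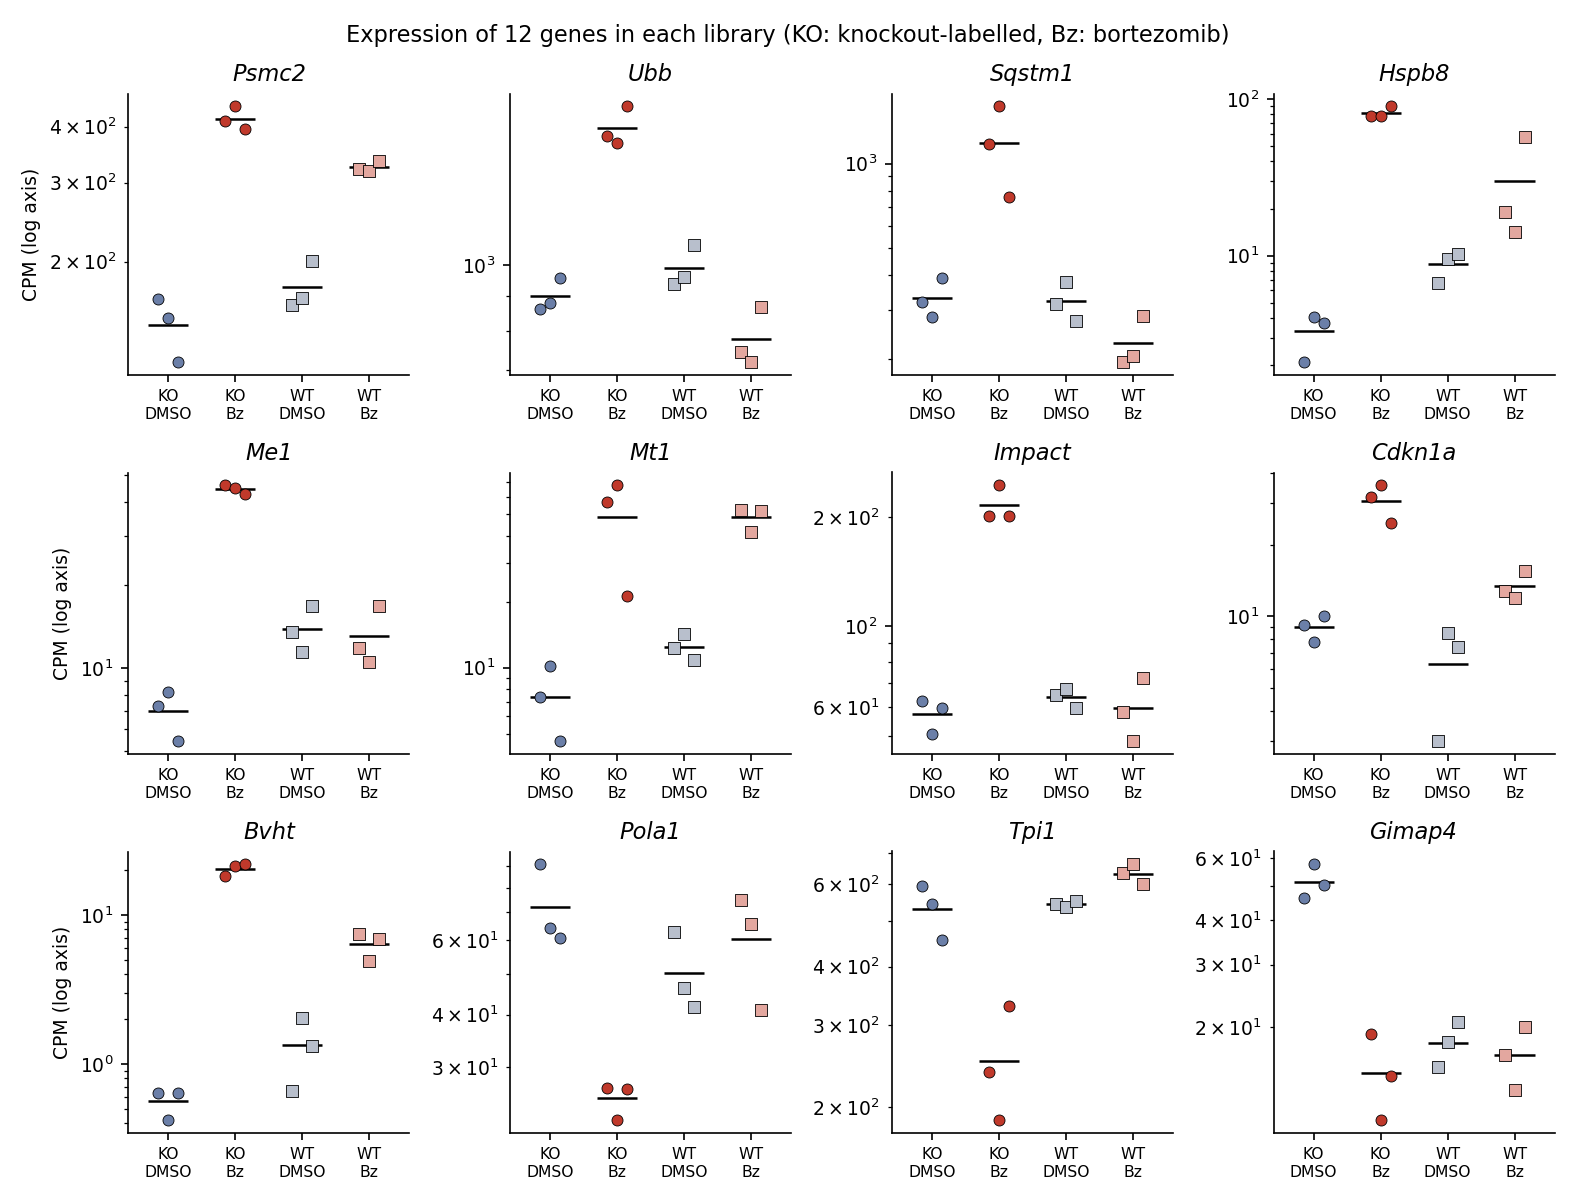
CPM (log axis) of 12 genes in each of the 12 libraries, with a horizontal line at the mean of each group of 3 (KO: knockout-labelled, Bz: bortezomib). In the knockout-labelled libraries the bortezomib points of the first 9 genes lie above all DMSO points, and those of Pola1, Tpi1 and Gimap4 below.

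Genes of both parts of the proteasome rose under bortezomib. Of 19 cap subunits 16 rose and 0 fell, with a median log2 fold change of 1.203 against 0.003 over all genes. Of 14 core subunits 10 rose and 0 fell, with a median of 0.86. Psmc2, an ATPase of the cap (chromosome 5, 21785283 to 21803787), stood at 165, 149 and 119 CPM under DMSO and 412, 444 and 395 CPM under bortezomib and rose (log2 fold change 1.53 with SE 0.16, edgeR adjusted p = 0.000124). In DMSO 1 to 3 Psmd4 had 177, 152 and 145 CPM, and in bortezomib 1 to 3 it had 377, 445 and 363 CPM. The 2 groups lay far apart for this ubiquitin receptor of the cap, which rose (log2 fold change 1.32 with SE 0.16, edgeR adjusted p = 0.000392). Psmc6, another cap ATPase, rose by 1.57 and the ubiquitin receptor Adrm1 by 1.43 on the log2 scale. Psma5, a structural subunit of the core, stood at 192, 242 and 175 CPM under DMSO and 368, 457 and 597 CPM under bortezomib and rose (log2 fold change 1.22 with SE 0.22, edgeR adjusted p = 0.00514), and the core subunits Psmb4 and Psmb3 rose by 1.15 and 1.03. Within the core, bortezomib 3 was the highest library of each of these 3 genes.

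The catalytic subunit that bortezomib binds was among the 4 core genes that did not pass. Levels of Psmb5 were 104, 117 and 81.2 CPM under DMSO and 115, 97.1 and 189.9 CPM under bortezomib, in order of library. Only bortezomib 3 exceeded every DMSO library (log2 fold change 0.41 with SE 0.23, edgeR adjusted p = 0.392). The other 3 were Psma2, Psmb6 and Psma6, with log2 fold changes of 0.69, 0.66 and 0.52. Leaving out a library reduced the core calls to 3 (DMSO 3), 4 (DMSO 1), 5 (bortezomib 3) or 6 (DMSO 2), while their median stayed between 0.65 and 0.98. The cap kept at least 13 calls. Its 3 genes that did not pass were Psmd8, Psmd13 and Shfm1, with log2 fold changes of 0.31, 0.72 and -0.13. Of 18 assembly factors, activators and regulators of the NRF1 route, 3 rose and 0 fell: Zfand2a, a zinc finger protein that binds the cap under proteotoxic stress (log2 fold change 1.56 with SE 0.26, edgeR adjusted p = 0.00359), Zfand5, a proteasome activator (0.92), and the deubiquitinase Usp14 (0.61). Zfand2a alone was called without DMSO 2 or without bortezomib 2. Immunoproteasome and antigen processing genes gave 0 edgeR calls in 16, with a median of 0.03, 1 of them higher at an unadjusted p under 0.05. DESeq2 called 0 and limma voom 2 higher and 1 lower. Among all genes tested edgeR called 3.63%.

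Proteasome genes and antioxidant genes are known targets of the NRF1 and NRF2 factors, which bind antioxidant response elements. Their core letters, TGACNNNGC on either strand, were searched in RefSeq promoters (GRCm38.p6, 250 bases before to 50 after the start). They were found in 12.4% of 32851 promoters searched. Of the 10617 genes tested with a promoter among them, 17.3% held the letters. A gene counted if any of its promoters held them, so the shares of genes and of promoters are unlike measures. The share was 23.4% for genes called higher (59 of 252), 17.7% for those called lower (36 of 203) and 17.2% for genes not called (1746 of 10162). By gene, 3 of 13 called cap genes held the letters, 0 of 7 called core genes and 10 of 24 NRF2 target genes, 2 of the 6 called higher among them. The 5 promoter stretches below belong to called genes of the cap and of the NRF2 list, are written in the direction of transcription and have the matching letters in capitals.
Psmc6, chr14:45329574-45329645, plus strand: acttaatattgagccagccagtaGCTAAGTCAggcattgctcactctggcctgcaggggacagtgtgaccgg
Adrm1, chr2:180171386-180171474, plus strand: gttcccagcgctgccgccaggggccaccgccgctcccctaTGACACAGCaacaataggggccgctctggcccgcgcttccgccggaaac
Psmd12, chr11:107479278-107479329, plus strand: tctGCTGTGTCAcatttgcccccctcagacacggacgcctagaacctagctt
Me1, chr9:86695872-86695960, minus strand: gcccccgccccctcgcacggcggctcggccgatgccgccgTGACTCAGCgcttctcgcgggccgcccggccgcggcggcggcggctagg
Srxn1, chr2:152105512-152105573, plus strand: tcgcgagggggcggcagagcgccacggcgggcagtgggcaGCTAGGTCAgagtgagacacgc
Relative to the annotated transcription start, the matches begin at -6 in Me1, 28 in Srxn1, -227 in Psmc6, -247 in Psmd12 and -162 in Adrm1. A match of letters does not show binding.

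Ubiquitin genes and factors that pull tagged proteins out of complexes also rose. Of 20 genes that supply ubiquitin or serve the p97 segregase, 7 rose and 0 fell, with a median of 0.38. The 3 DMSO libraries held Ubb at 861, 879.8 and 956 CPM and the 3 bortezomib libraries at 1549, 1513 and 1716 CPM. Ubb (chromosome 11, 62551171 to 62553213), which encodes a chain of ubiquitin units, thus stood higher in every bortezomib library (log2 fold change 0.83 with SE 0.14, edgeR adjusted p = 0.00472). The p97 cofactors Nploc4 and Ufd1l rose by 1.57 and 1.26, Nsfl1c, another p97 cofactor, by 0.76 and Vcp, which encodes p97, by 0.78. Ubb holds near-identical repeats, so its reads may be shared with other ubiquitin genes. The calls of Ufd1l, Nploc4 and Ubb were the 3 left without DMSO 2 or bortezomib 2, and 4 calls were left without DMSO 3. Vcp lost its call without DMSO 2 (adjusted p = 0.11), DMSO 3 (0.0664), bortezomib 1 (0.06897) or bortezomib 2 (0.0762).

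**Figure D2:**
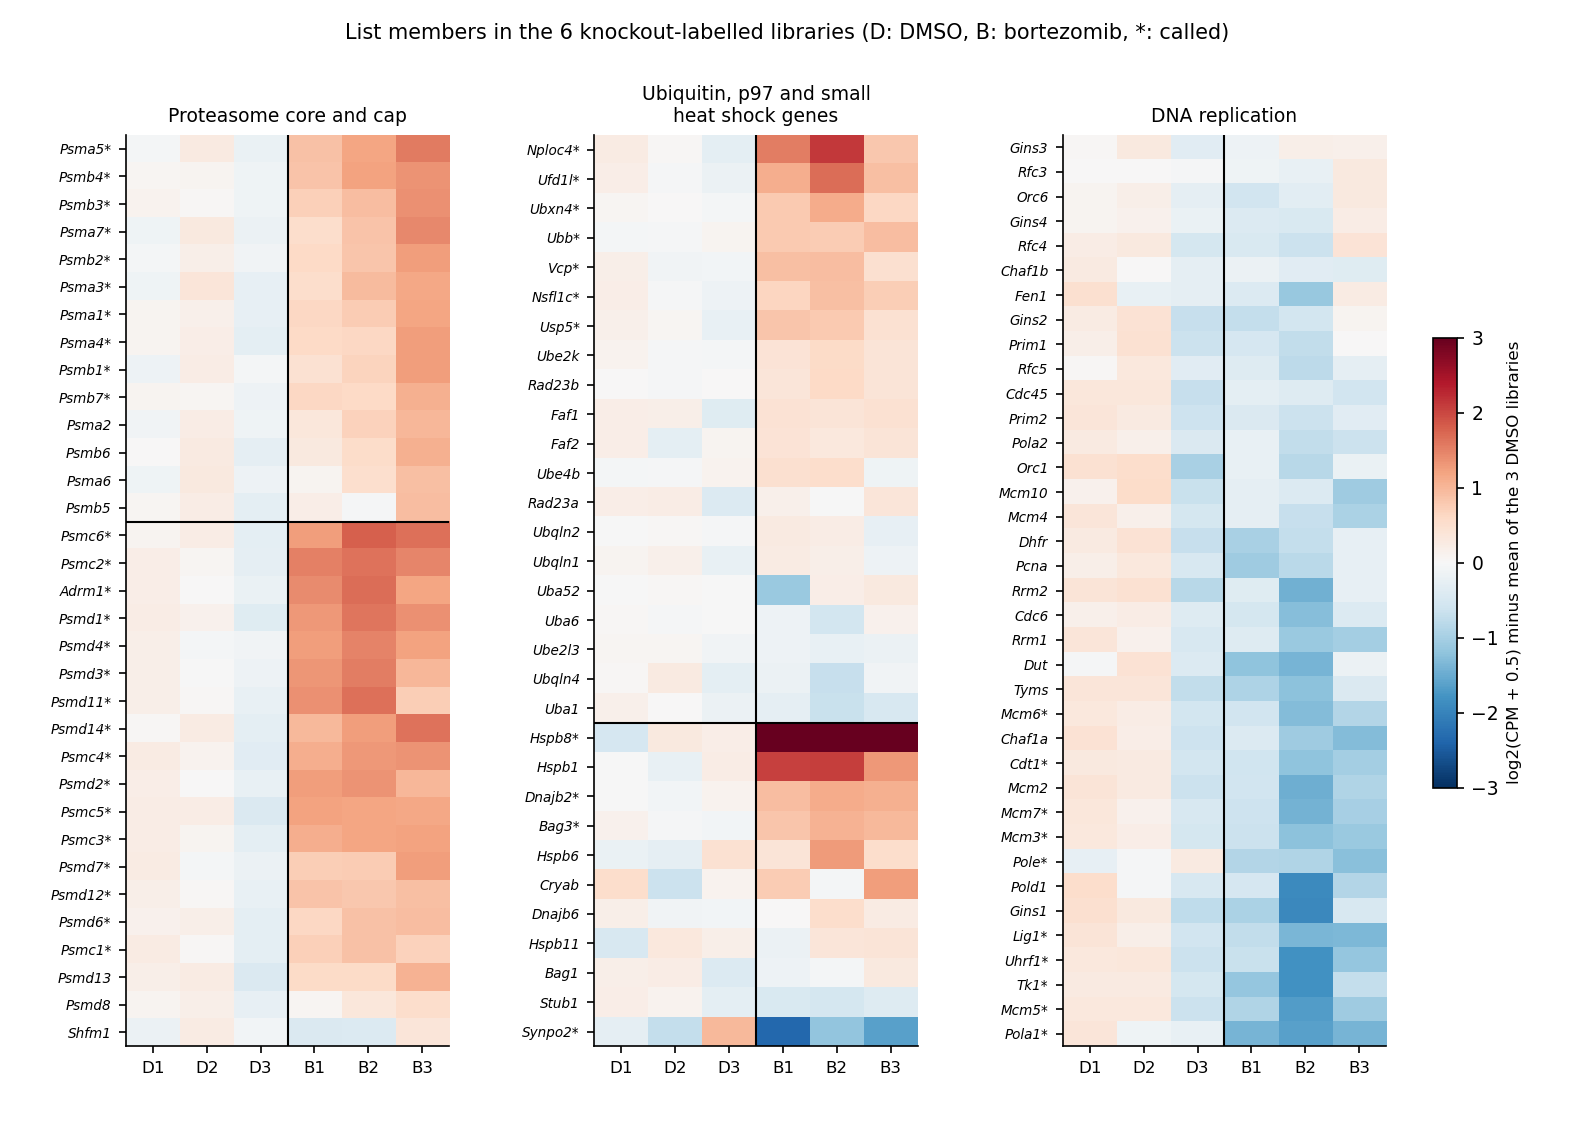
log2(CPM + 0.5) of list members in the 6 knockout-labelled libraries (D1 to D3 DMSO, B1 to B3 bortezomib), as the difference from the mean of the 3 DMSO libraries, with called genes marked by an asterisk. Cap genes and Hspb8 are raised in all 3 bortezomib libraries, core genes are highest in B3, and most replication genes lie below the DMSO mean in the 3 bortezomib libraries.

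Of 22 autophagy receptors Sqstm1 alone rose. For Sqstm1, DMSO 1 to 3 gave 318, 283 and 390.1 CPM and bortezomib 1 to 3 gave 1179, 1604 and 759 CPM. The lowest bortezomib library, bortezomib 3, still stood above every DMSO library (log2 fold change 1.84 with SE 0.25, edgeR adjusted p = 0.000861). Optn, an aggregate and mitochondria receptor, stood at 16.9, 7.14 and 6.08 CPM under DMSO and 33.7, 31.7 and 13.6 CPM under bortezomib, with overlap, and did not pass (adjusted p = 0.0683). Among small heat shock proteins and the chaperone-assisted autophagy machinery 3 of 11 genes rose and 1 fell, with a median of 0.75. Hspb8 (chromosome 5, 116408491 to 116422864), a small heat shock protein that works with Bag3 to pass misfolded clients to autophagy, had 2.09, 4.04 and 3.74 CPM under DMSO and 77.4, 78.4 and 89.9 CPM under bortezomib, a 25.01-fold rise (log2 fold change 4.64 with SE 0.47, edgeR adjusted p = 0.000105). Bag3 was at 18.2, 16.2 and 15.6 CPM in DMSO 1 to 3 and at 30.1, 34.6 and 33.1 CPM in bortezomib 1 to 3. Bag3, the co-chaperone, and the ubiquitin-binding J protein Dnajb2 rose by 0.97 and 1.05 on the log2 scale. The fall was in Synpo2, an actin-binding partner of Bag3. Without DMSO 2 or bortezomib 2 Hspb8 was the only gene of the list that stayed higher, as Bag3 (adjusted p = 0.0756 and 0.0551) and Dnajb2 (0.106 and 0.0713) lost their calls. Dnajb2 also lost it without DMSO 1 (0.0855).

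Some genes of the autophagy machinery and the lysosome rose. Of 16 genes of the LC3 family and its conjugation enzymes 3 rose and 0 fell (median 0.19): Atg4a, a protease that processes LC3 proteins (0.94), the LC3 relative Gabarapl1 (0.53) and Atg7, the activating enzyme (0.66). None of the 3 was called without any 1 of the DMSO libraries. Of 21 initiation genes Vmp1, a membrane protein of the ER, rose by 0.85, a call lost without DMSO 2 (adjusted p = 0.0606), DMSO 3 (0.0667) or bortezomib 2 (0.0559). Of 39 lysosome genes 7 rose and 0 fell, with a median of 0.28. Without overlap upward were 23 of the 39, against 10.6% of all genes tested. In DMSO 1 to 3 Ctss had 49.9, 35.9 and 41.6 CPM, and in bortezomib 1 to 3 it had 155, 102 and 139 CPM. This lysosomal protease, cathepsin S, and Atp6v1h, a subunit of the pump that acidifies lysosomes, rose by 1.64 and 1.00 (adjusted p = 0.00134 and 0.00252). Cathepsin D (Ctsd) and the pump subunit Atp6v0a1 rose by 0.87 and 1.12, but lost their calls without DMSO 2 (adjusted p = 0.0606 and 0.0639), where the list kept 2 calls.

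Calls among classical heat shock genes were close to the share over all genes, 3.63%. Of 28 cytosolic chaperones and chaperonin subunits 0 rose and 1 fell, with a median of -0.06. Over all genes tested 2.02% rose and 1.61% fell. DESeq2 called 2 of the 28 lower and limma voom 4, and neither called any higher. Hsp90aa1, an HSP90 gene, stood at 461, 415 and 330.1 CPM under DMSO and 287, 279.9 and 283 CPM under bortezomib (log2 fold change -0.51, adjusted p = 0.117). Fkbp4, an HSP90 co-chaperone, fell by 1.08, a call lost without DMSO 1, DMSO 2 or bortezomib 2 (adjusted p = 0.0621, 0.0914 and 0.0597). Of 28 endoplasmic reticulum genes 3 rose and 0 fell (median 0.18): the unfolded protein response factor Xbp1 (1.03) and the ER-associated degradation genes Syvn1 (0.85) and Derl2 (0.67). The count was 0 without DMSO 1, DMSO 3 or bortezomib 2. Of 27 targets of the integrated stress response, 2 rose and 2 fell. The amino acid transporter subunit Slc3a2 stood at 195, 171 and 187 CPM under DMSO and 362, 417 and 338 CPM under bortezomib and rose (log2 fold change 1.01 with SE 0.16, edgeR adjusted p = 0.00278), as did the stress regulator Nupr1 (1.31), while the serine and glycine pathway enzymes Phgdh and Shmt2 fell by 0.94 and 0.76. Slc3a2 was the only 1 of the 4 to keep its call without DMSO 1, DMSO 2, bortezomib 1 or bortezomib 2. Atf4 itself overlapped, at 54.8, 40.04 and 37.3 CPM under DMSO and 79.4, 123 and 48 CPM under bortezomib (adjusted p = 0.0662).

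Impact, whose product restrains the eIF2 kinase GCN2 that acts upstream of Atf4, had the second lowest p of all genes. Levels of Impact were 62.3, 50.5 and 59.5 CPM under DMSO and 201, 244 and 202 CPM under bortezomib, in order of library. The groups did not overlap and the level rose 3.75-fold (log2 fold change 1.91 with SE 0.18, edgeR adjusted p = 8.31e-05). Impact is imprinted, and was the only 1 of 14 imprinted genes tested to rise. Among them Cdkn1c, Grb10 and Igf2r fell, with log2 fold changes of -1.21, -0.82 and -1.797, all 3 calls being lost without DMSO 2 or without bortezomib 2.

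Antioxidant and metal response genes rose in part. Of 30 NRF2 targets 7 rose and 1 fell, with a median of 0.33. The 3 DMSO libraries held Me1 at 7.28, 8.19 and 5.45 CPM and the 3 bortezomib libraries at 45.9, 44.7 and 42.5 CPM. Malic enzyme 1, which makes NADPH, therefore stood 6.35-fold higher, with no overlap (log2 fold change 2.67 with SE 0.26, edgeR adjusted p = 0.000105). Srxn1, the enzyme that repairs oxidised peroxiredoxins, stood at 38.04, 34.1 and 45.9 CPM under DMSO and 113, 139.6 and 122 CPM under bortezomib and rose (log2 fold change 1.67 with SE 0.18, edgeR adjusted p = 0.000155). Biliverdin reductase B (Blvrb) and the quinone reductase Nqo1 rose by 1.63 and 1.42. Tkt, a pentose phosphate enzyme, was the member that fell, by 0.64, a call lost without any 1 library except bortezomib 3. The higher calls were reduced to 4 without DMSO 1, DMSO 2 or bortezomib 2, and Me1, Srxn1, Blvrb and Nqo1 held throughout. Of 10 metallothionein and metal handling genes Mt1 rose. For Mt1, DMSO 1 to 3 gave 7.37, 10.1 and 4.62 CPM and bortezomib 1 to 3 gave 57.1, 67.9 and 21.1 CPM. This metal-binding protein was lowest in bortezomib 3 among the treated libraries, yet above each DMSO library (log2 fold change 2.72 with SE 0.37, edgeR adjusted p = 0.000861). Its neighbour Mt2 stood at 0.319, 1.102 and 0.317 CPM under DMSO and 5.62, 10.1 and 0.562 CPM under bortezomib, with overlap, and did not pass (adjusted p = 0.0704).

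Early response and cytokine feedback genes rose in part. Among all genes tested 2.02% were called higher and 1.61% lower. Of 26 immediate early genes 6 rose and 0 fell, with a median of 0.53. Klf2 was at 2.59, 2.83 and 4.81 CPM in DMSO 1 to 3 and at 34.7, 26.9 and 21.4 CPM in bortezomib 1 to 3. Klf2, a zinc finger factor linked to T cell quiescence, rose 8.13-fold (log2 fold change 3.02 with SE 0.55, edgeR adjusted p = 0.00615). Egr1 (2.06), Ier3 (1.68) and Klf6 (1.03) rose too, and these 4 were the calls left without DMSO 2. Of 18 genes of cytokine signalling and its feedback 2 rose, the inhibitor Socs3 (2.45) and Bcl3 (1.15), the latter called only without bortezomib 3 when a library was left out. Of 22 NF-kB genes 5 rose and 0 fell (median 0.61), namely the chemokines Cxcl10 (1.799) and Ccl4 (1.86), the subunit Nfkb2 (1.25), the regulator Nfkbiz (1.44) and the survival gene Birc3 (0.89). No NF-kB gene kept its call without DMSO 2 or without bortezomib 2. Interferon-stimulated genes had 0 edgeR calls in 34 and a median of 0.29, with 4 higher at an unadjusted p under 0.05, 4 called higher by DESeq2 and 9 by limma voom. That median was -0.13 without bortezomib 1 and 0.53 without bortezomib 3, where 3 genes were called higher. Skil, a repressor of SMAD signalling, stood at 16.6, 11.3 and 19.6 CPM under DMSO and 46.8, 91.5 and 44.1 CPM under bortezomib and rose (log2 fold change 1.94 with SE 0.297, edgeR adjusted p = 0.00192). Of the 18 TGF-beta and ID genes Id2 was the other to rise (1.09), a call that remained only without bortezomib 3.

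Genes of DNA synthesis were lower under bortezomib. Of 37 replication genes 0 rose and 10 fell, with a median of -0.71. Among all genes tested 2.02% rose and 1.61% fell. In DMSO 1 to 3 Pola1 had 90.96, 64.4 and 60.7 CPM, and in bortezomib 1 to 3 it had 26.8, 22.5 and 26.7 CPM. The catalytic subunit of DNA polymerase alpha thus fell in every bortezomib library (log2 fold change -1.51 with SE 0.24, edgeR adjusted p = 0.00283). Mcm5 and Mcm3, subunits of the replicative helicase, fell by 1.25 and 1.02, and the ligase Lig1 by 1.18. Pola1 was the only replication call without DMSO 2, there were 19 without DMSO 3, and the median stayed between -0.92 and -0.61. DMSO 3 had the lowest Mcm5 level of the DMSO libraries (375, 377 and 192 CPM under DMSO and 160.1, 94.1 and 144 CPM under bortezomib). Mitosis genes gave 0 calls in 30 (median -0.15), also by DESeq2 and limma voom, with 0 at an unadjusted p under 0.05 in edgeR, and the chromosome condensation enzyme Top2a overlapped, at 243, 187 and 131 CPM under DMSO and 197, 126 and 67.95 CPM under bortezomib (adjusted p = 0.462).

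The brake on the cell cycle Cdkn1a (p21) rose. Levels of Cdkn1a were 9.19, 7.82 and 10.01 CPM under DMSO and 31.7, 35.4 and 24.6 CPM under bortezomib, in order of library. The groups were separate (log2 fold change 1.76 with SE 0.32, edgeR adjusted p = 0.00651). Of 20 genes of G1 control 2 rose and 3 fell: besides Cdkn1a, the inhibitor Cdkn2d rose (0.68), and Cdkn1c (p57), E2f1 and cyclin D1 (Ccnd1) fell by 1.21, 1.06 and 1.31. Cdkn1a was the only 1 of these 5 called without DMSO 2 or without bortezomib 2. Of 23 p53 targets 3 rose and 2 fell (median 0.11). Cdkn1a, Perp, a junction protein of apoptosis (1.204), and the kinase Plk3 (1.61) rose, while Sesn1 and Trp53, the p53 gene, fell by 0.68 and 0.697. Of these 5 Cdkn1a alone held without DMSO 2 and without bortezomib 2. Among 16 BCL2 family genes Bok, a pro-apoptotic member, was the only call, with a fall of 1.73 although its libraries overlapped (11.3, 17.9 and 5.7 CPM under DMSO and 2.6, 1.99 and 5.84 CPM under bortezomib), and it was not called without DMSO 1, DMSO 2, bortezomib 1 or bortezomib 2.

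Glycolysis genes fell in part. Among all genes tested 2.02% were called higher and 1.61% lower, the shares to read beside the counts in growth and energy lists. Of 21 glycolysis genes 0 rose and 3 fell (median -0.16). The 3 DMSO libraries held Tpi1 at 597, 544 and 457 CPM and the 3 bortezomib libraries at 238, 188 and 329 CPM. Triosephosphate isomerase thus stood at about 0.472 of its DMSO level (log2 fold change -1.08 with SE 0.19, edgeR adjusted p = 0.00435). Pfkl and Eno1, an early and a late enzyme of the pathway, fell by 0.92 and 0.84, and only Tpi1 was called without DMSO 1, DMSO 2 or bortezomib 2. The 78 ribosomal protein genes, the 45 nuclear genes of the respiratory chain and the 13 protein-coding transcripts of the mitochondrial genome gave 0 calls, with medians of -0.07, -0.205 and -0.06. At an unadjusted p under 0.05 the edgeR counts were 1, 4 and 0 genes lower. DESeq2 called 0, 1 and 0 lower and limma voom 3, 9 and 2. Of 26 ribosome biogenesis genes 1 fell, Polr1a, the large subunit of RNA polymerase I (-0.78), and of 23 cholesterol genes 2 fell, Dhcr7 (-0.78) and Stard4 (-0.66). Each of the 3 lost its call in at least 4 of the 6 fits that left out a library, DMSO 2 among them (adjusted p = 0.0604, 0.0934 and 0.119).

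**Figure D3:**
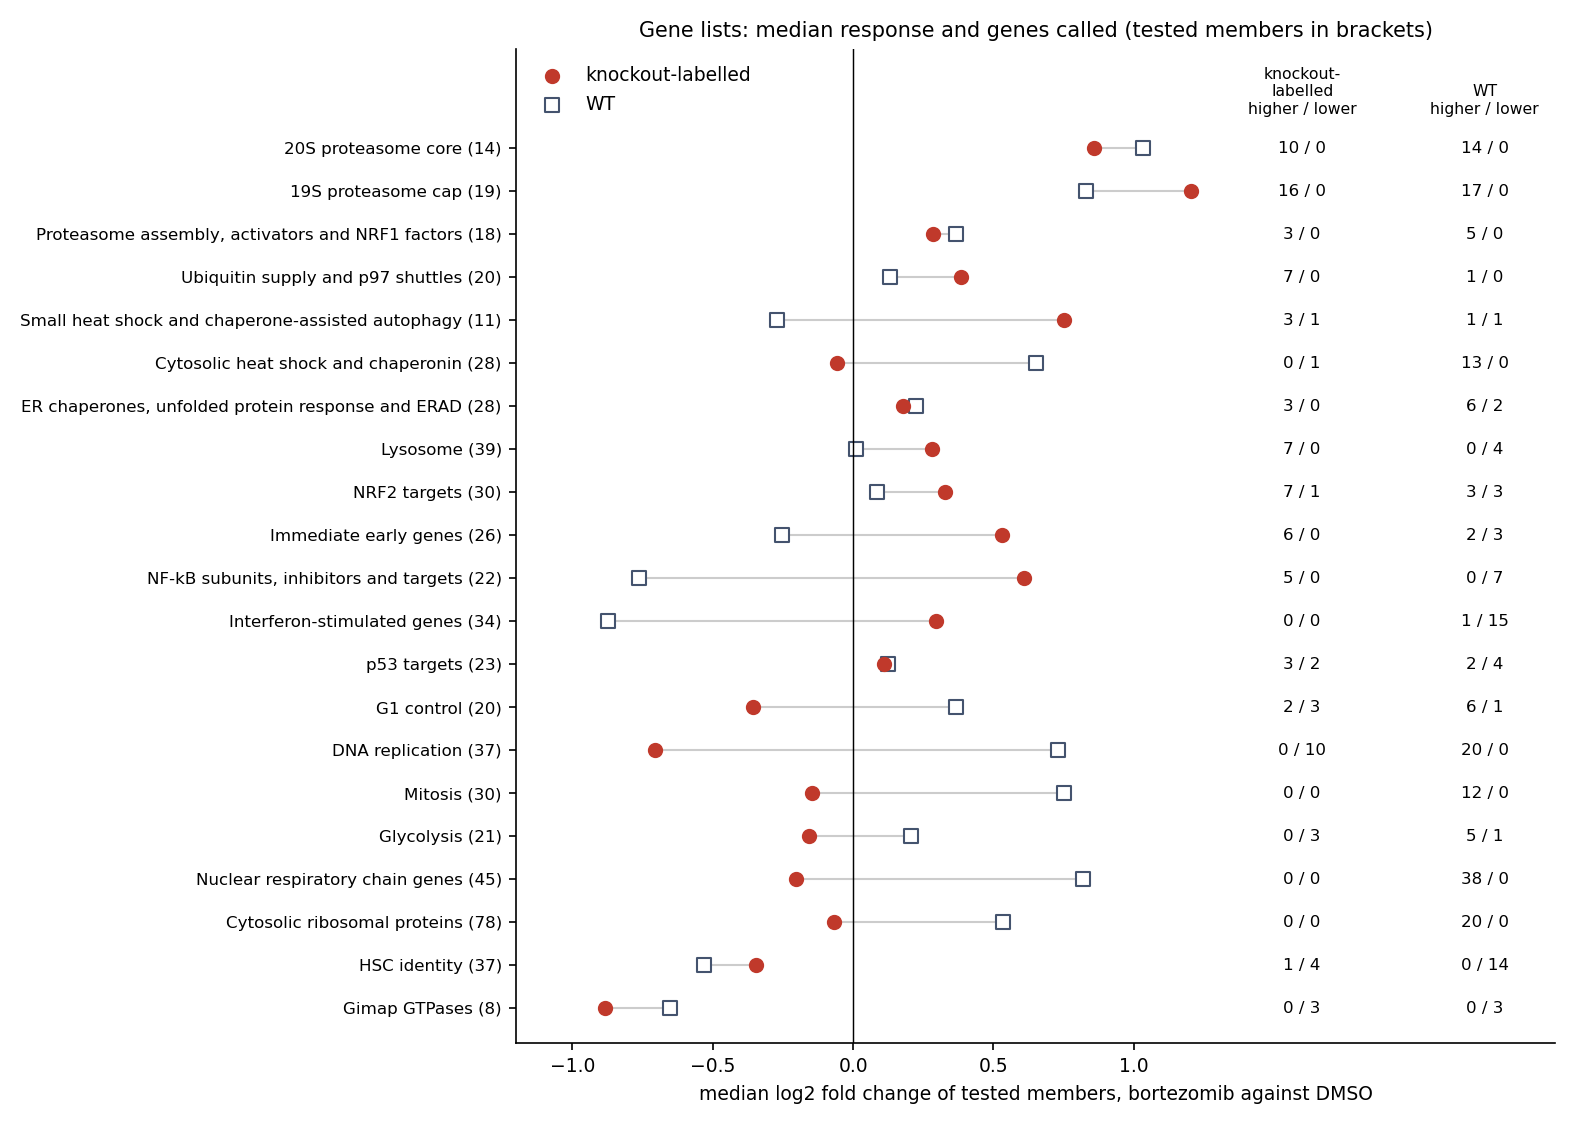
Median log2 fold change of the tested members of 21 gene lists under bortezomib, in knockout-labelled (filled circles) and WT HSCs (open squares), with the numbers of members called higher and lower at the right. The proteasome lists lie to the right in both genotypes, while DNA replication, respiratory chain and NF-kB lists lie on opposite sides of 0. The interferon list does too, but its knockout-labelled median lies below 0 without bortezomib 1 (-0.13) and with the Xist share (-0.082).

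Some genes of stem cell identity fell. Of 37 such genes 1 rose and 4 fell, with a median of -0.34, and 12 of the 37 lay below DMSO with no overlap, against 9.73% of all genes tested. For Angpt1, DMSO 1 to 3 gave 559, 476 and 624 CPM and bortezomib 1 to 3 gave 283, 277 and 285 CPM. Angpt1, a ligand made by HSCs, fell in step across the 3 bortezomib libraries (log2 fold change -0.97 with SE 0.16, edgeR adjusted p = 0.00275). Hlf, a transcription factor of HSCs, fell by 1.101 and von Willebrand factor (Vwf), a mark of platelet-biased HSCs, by 1.198, with Cdkn1c the other fall. Sult1a1, a sulfotransferase, rose by 1.503. Without DMSO 2 the falls of Angpt1 and Hlf were the 2 calls left, Vwf standing at an adjusted p of 0.0516 and Sult1a1 at 0.0682. In WT HSCs 0 of the 37 genes were called higher and 14 lower, with a median of -0.53. Differences between genotypes were called for 3 genes toward higher and 1 toward lower in knockout-labelled HSCs (9.05% of all genes tested differed). The sort markers gave 0 edgeR calls in 7, with 1 higher and 2 lower at an unadjusted p under 0.05, and DESeq2 called 1 each way. Limma voom called 1 higher and 2 lower, and edgeR 3 lower without bortezomib 3. Among all genes tested edgeR called 3.63% with all libraries. Kit stood at 979, 886 and 1113 CPM under DMSO and 671, 658 and 486 CPM under bortezomib without overlap, just beyond the threshold (log2 fold change -0.71, adjusted p = 0.0504), and Ly6a at 424, 338 and 459 CPM under DMSO and 708, 559 and 704 CPM under bortezomib (adjusted p = 0.125).

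Serpina3 and Gimap genes moved in opposite directions. All 3 Serpina3 protease inhibitors tested rose. Serpina3g was at 1793, 974 and 1284 CPM in DMSO 1 to 3 and at 3349, 3828 and 2829 CPM in bortezomib 1 to 3. Serpina3g, an inhibitor of cysteine proteases, had the highest counts of the 3 (log2 fold change 1.304 with SE 0.22, edgeR adjusted p = 0.00435), and Serpina3f and Serpina3i rose by 2.08 and 5.84. Serpina3g alone was called without DMSO 2. The 3 genes are close copies, and reads could be split among them and the 7 family members not tested. Of 8 Gimap GTPases, which act in the survival of lymphocytes, 0 rose and 3 fell, with a median of -0.88. In DMSO 1 to 3 Gimap4 had 46.2, 57.7 and 50.3 CPM, and in bortezomib 1 to 3 it had 19.1, 10.9 and 14.5 CPM. The groups were apart (log2 fold change -1.79 with SE 0.24, edgeR adjusted p = 0.000861), and Gimap1 and Gimap7 fell by 0.76 and 1.76. Gimap4 was the only call without bortezomib 2. Gimap genes are related copies in a cluster, so part of their reads may be shared.

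The largest rises, ranked by fold, included genes hardly detected under DMSO. With called genes limited to those without overlap and with a mean of 5 CPM or more in whichever group was higher, the 12 largest rises included the apoptosis inhibitor Nol3, with 0 counts in the 3 DMSO libraries and 104, 110 and 158 counts in bortezomib 1 to 3. Against an assumed floor of 3 counts over the DMSO group, its level was 103.85-fold higher, and the lower 95% counting bound of the ratio was 84.04. Kif1a, a kinesin that carries vesicles along microtubules, had 2 counts in all DMSO libraries together and 741 under bortezomib, a ratio of 310.3 with a 95% counting interval of 85.6 to 2567. Trnp1, a nuclear protein, had 3 counts against 354 (ratio 98.8, interval 33.5 to 481), of which 295 came from bortezomib 2. Levels of Fbxo2 were 0, 0.0525 and 0.697 CPM under DMSO and 25.9, 24.5 and 25.5 CPM under bortezomib, in order of library. This ubiquitin ligase subunit, which recognises glycoproteins, was even across the treated libraries (log2 fold change 6.79 with SE 0.84, edgeR adjusted p = 0.000582). The calcium sensor recoverin (Rcvrn) stood at 0, 0.2099 and 0 CPM under DMSO and 8.45, 9.03 and 4.68 CPM under bortezomib, and cystatin F (Cst7), an inhibitor of lysosomal proteases, at 0.09101, 0.105 and 0 CPM under DMSO and 6.18, 2.86 and 6.74 CPM under bortezomib. The lncRNA Bvht, first described in heart development, had the lowest p of all genes, at 0.637, 0.4198 and 0.633 CPM under DMSO and 18.3, 21.2 and 21.8 CPM under bortezomib (log2 fold change 5.17 with SE 0.44, edgeR adjusted p = 5.10e-05). Whether counting used strand is not given in the sources used here, so its reads cannot be told apart from those of an overlapping gene. Pir, an iron-binding nuclear protein, stood at 3.78, 2.05 and 3.17 CPM under DMSO and 37.4, 34.4 and 34.6 CPM under bortezomib (log2 fold change 3.56 with SE 0.42, edgeR adjusted p = 0.000392). Pla2g7, which inactivates platelet-activating factor, stood at 5.32, 2.41 and 1.39 CPM under DMSO and 56.1, 25.3 and 41.97 CPM under bortezomib (log2 fold change 3.74 with SE 0.52, edgeR adjusted p = 0.000948). Serpina3i, Hspb8 and Mir22hg, the transcript that holds miR-22, at 0, 0.945 and 2.15 CPM under DMSO and 11.5, 22.3 and 17.7 CPM under bortezomib, complete the 12.

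The 12 largest falls were in genes of many functions. Faah, which degrades anandamide, stood at 30.3, 59.1 and 53.1 CPM under DMSO and 13.8, 7.19 and 10.97 CPM under bortezomib (log2 fold change -2.15 with SE 0.32, edgeR adjusted p = 0.00178). The 3 DMSO libraries held Sdc1 at 15.5, 18.2 and 28.4 CPM and the 3 bortezomib libraries at 2.69, 2.601 and 6.22 CPM. The cell surface proteoglycan syndecan-1 fell without overlap (log2 fold change -2.42 with SE 0.34, edgeR adjusted p = 0.00104). Unc45b, a myosin chaperone, stood at 13.4, 12.3 and 13.7 CPM under DMSO and 3.06, 3.37 and 2.55 CPM under bortezomib (log2 fold change -2.13 with SE 0.38, edgeR adjusted p = 0.00494), and the membrane adaptor Gapt at 4.596, 5.3 and 6.33 CPM under DMSO and 0.975, 0.612 and 0.1498 CPM under bortezomib (log2 fold change -3.23 with SE 0.65, edgeR adjusted p = 0.01201). The synaptotagmin Syt3 was at 5.82, 6.77 and 6.97 CPM under DMSO and 1.39, 1.02 and 0.2995 CPM under bortezomib (log2 fold change -2.86 with SE 0.47, edgeR adjusted p = 0.00341). Globin Hbb-bt fell from 133 ± 61.6 to 22.6 ± 21.9 CPM. Gkn3, a gastrokine (-3.94), the germ cell helicase Ddx4 (-2.85), Ms4a4b, a membrane protein of T cells (-2.67), the creatine synthesis enzyme Gamt (-2.47), the platelet chemokine Ppbp (-2.22) and Synpo2 (-2.11) are given by their log2 fold changes.

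Of these 24 genes 14 kept their call with each library left out. Hbb-bt (adjusted p = 0.0579) and Ppbp (0.0521) lost it without bortezomib 2. Serpina3i lost it without DMSO 2 or bortezomib 2 (0.0632 and 0.0626), as did Gamt (0.115 and 0.0691), and Ddx4 without DMSO 2 or bortezomib 1 (0.0989 and 0.0624). Mir22hg lost it without DMSO 1, DMSO 2 or bortezomib 2 (at most 0.124), and Gkn3 without DMSO 2, bortezomib 1 or bortezomib 2 (at most 0.161). Trnp1 lost it without any DMSO library or bortezomib 2 (at most 0.324), Ms4a4b without any library except bortezomib 3 (at most 0.115), and Synpo2 without any except DMSO 2 (at most 0.199).

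A few markers of other cells were called too. Of 12 erythroid genes 1 rose and 2 fell: Rhag, a membrane protein of red cells (log2 fold change 2.41 with SE 0.34, edgeR adjusted p = 0.001004), rose from 5.12 ± 2.39 to 27.4 ± 6.39 CPM, and Car2 and Hbb-bt fell, Car2 by 0.74, a call lost without DMSO 2 (adjusted p = 0.0606). The summed level of the 12 genes was 1725 to 2119 CPM under DMSO and 1063 to 1285 under bortezomib. Most of it was Car2, with means of 1740 and 1039 CPM. The median log2 fold change of the list was 0.15, with 6 of the 12 above 0, and each of its 14 genes had counts. Reads of Hbb-bt may be shared with other globin genes. Of 20 monocyte and macrophage genes Cd14 and Cd68 rose (2.86 and 0.88) and 0 fell. The median of that list was -0.05, with 10 of the 20 above 0 and log2 fold changes from -3.49 to 2.86. The summed level of that list overlapped, at 527 to 659 CPM under DMSO and 365 to 738 under bortezomib. Both calls were lost without DMSO 2 (adjusted p = 0.0606 and 0.0882), and that of Cd68 without DMSO 3 (0.0535). Of 13 megakaryocyte genes Itgb3 rose and Vwf and Ppbp fell, with sums of 968 to 1123 and 1048 to 1550 CPM. For Itgb3, DMSO 1 to 3 gave 22.6, 10.9 and 13.4 CPM and bortezomib 1 to 3 gave 139.9, 94.3 and 65.6 CPM. This integrin subunit rose without overlap (log2 fold change 2.67 with SE 0.37, edgeR adjusted p = 0.000978). Of 10 endothelial and stromal genes Sparc and Fabp4 rose (2.21 and 2.83), and 0 were called without DMSO 1, DMSO 2 or bortezomib 1, while Lepr and Adipoq had no counts. Among all genes tested 3.63% were called, so 0 calls in a short list say little. Neutrophil, B cell, T and NK cell and multipotent progenitor lists gave 0 edgeR calls in 9, 5, 5 and 12 genes. Of these, 0, 0, 2 and 2 had an unadjusted p under 0.05, DESeq2 called 0, 0, 1 and 1, and limma voom 0, 0, 3 and 2. Those lists summed to 269 to 437, 55.1 to 74.4, 104 to 157 and 1153 to 1372 CPM under DMSO and to 235 to 361, 64.2 to 97.6, 76.2 to 144 and 882 to 1277 CPM under bortezomib, and 9 of the 16 T and NK cell genes, Cd3e and Cd8a among them, had no counts. The same held for the neutrophil genes Ctsg, Ly6g and Fcnb and the B cell genes Pax5, Igll1 and Ms4a1. Most of the neutrophil, B cell and T and NK cell sums came from 1 gene each. These were Prtn3 (means 323 CPM under DMSO and 270 under bortezomib), Cd79b (59.8 and 77.2) and Nkg7 (107 and 68.9). Fewer cells of a type and less RNA per cell cannot be told apart in these libraries, and the part of other cells in the gene groups was not tested.

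The response of the knockout-labelled HSCs differed from that of WT HSCs, which share no library with it. In WT 2508 genes (15.5%) were called, and the difference of the 2 responses, tested as an interaction, was called for 1462 genes (9.05%), 702 toward higher and 760 toward lower in the knockout-labelled HSCs. Of the 586 genes called here 176 were called in WT too (30.03% of the 586 and 7.02% of the 2508), 73 higher and 45 lower in both and 58 in opposite directions. Across all genes tested the Spearman correlation of the 2 sets of fold changes was -0.020, a description over genes, which are not independent. The 1462 calls fell to 276 with the Xist share as a covariate (261 of them among the 1462), to 352 without DMSO 2 and 397 without WT bortezomib 1, and rose to 2820 without bortezomib 3. WT libraries had Xist shares from 31.8% to 99.2%.

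**Figure D4:**
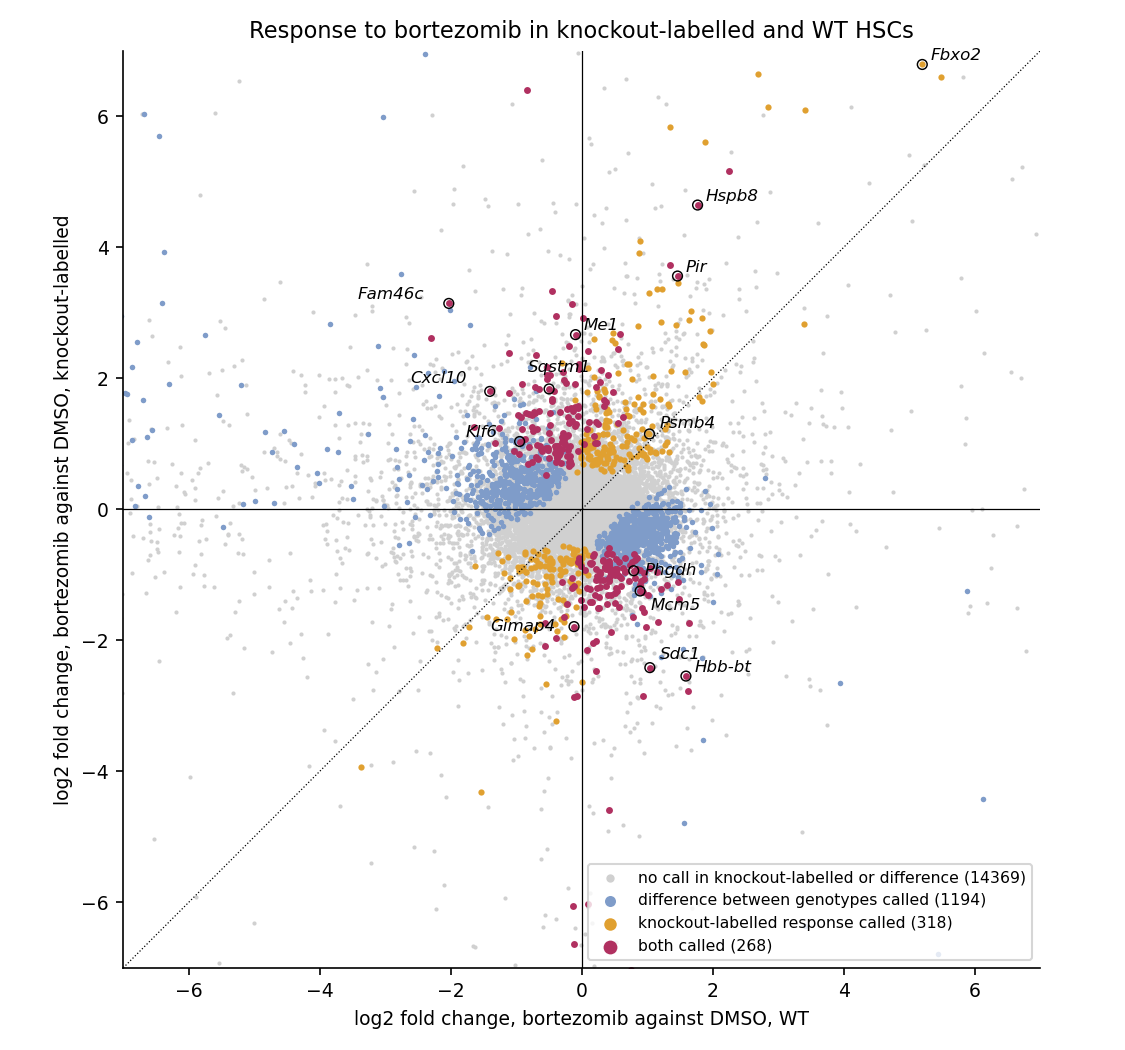
log2 fold change under bortezomib in WT (horizontal) and knockout-labelled HSCs (vertical) for each gene tested, coloured by call, with 69 genes outside the axes and the dotted line at equal responses. Genes with a called difference lie mainly at the upper left and lower right, and Psmb4 lies close to the line of equal responses.

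Proteasome genes were called higher in both genotypes. The 20S core had 14 of 14 genes higher in WT, where its median was 1.03, and 0 genes with a called difference. Of the cap 17 of 19 were higher in WT (median 0.83), and 3 of its genes rose more in knockout-labelled HSCs: Psmd1, Psmd4 and Psmd3, by 0.78, 0.77 and 1.05 on the log2 scale (interaction adjusted p = 0.0457, 0.0394 and 0.0143). No cap gene had a called difference without DMSO 2 or with the Xist share, by edgeR. Psmd1 lost its difference in 10 of the 12 fits that left out a library, Psmd4 in 9 and Psmd3 in 1.

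Some ubiquitin and aggregate-handling genes differed. Differences toward higher were called for 3 of 20 ubiquitin and p97 genes and 4 of 11 small heat shock genes, and 0 toward lower. Of 22 autophagy receptors 3 differed toward higher and 1 toward lower. Over all genes tested a difference was called for 9.05%. Ubb stood at 990.0 ± 71.4 to 777 ± 79.4 CPM in WT, where it was not called (adjusted p = 0.109), a difference of 1.18 (adjusted p = 0.00658). Sqstm1 stood at 322 ± 53.1 to 228 ± 49.3 CPM in WT, where it was not called (adjusted p = 0.174), a difference of 2.34 (adjusted p = 0.00384). Hspb8 rose in both genotypes but more here, from 8.82 ± 1.87 to 30.1 ± 23.7 CPM in WT (difference 2.88, adjusted p = 0.0114). Bag3 stood at 18.7 ± 1.43 to 14.2 ± 1.96 CPM in WT (difference 1.37, adjusted p = 0.0119). Me1, at 13.9 ± 2.73 to 13.03 ± 3.29 CPM in WT, and Impact, at 63.9 ± 3.903 to 59.5 ± 11.9 CPM, were not called there, and differed by 2.76 and 2.01 (adjusted p = 0.002804 and 0.002298). Cytosolic heat shock genes went the other way, with 13 of 28 called higher in WT and 0 here, and 1 difference called toward higher and 8 toward lower. With the Xist share 0 of the 28 genes had a called difference, and 1 did without DMSO 2, without WT DMSO 2 or without WT bortezomib 1.

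DNA replication, respiratory chain and NF-kB genes had medians on opposite sides of 0 in the genotypes, as did interferon-stimulated genes in the fit of all 12 libraries. Of 37 replication genes 20 were called higher in WT (median 0.73), and 28 differences were called, all toward lower here. There were 11 without DMSO 2 and 12 with the Xist share. Mcm5 rose from 296 ± 17.1 to 549 ± 58.6 CPM in WT (difference -2.14, adjusted p = 0.00494). Of 45 respiratory chain genes 38 were higher in WT and 25 differences were called toward lower, but 1 with the Xist share and 4 without DMSO 2 or without WT DMSO 2. NF-kB genes had 7 of 22 lower in WT and 9 differences toward higher, of which 3 were called with the Xist share and 2 without DMSO 2. Interferon-stimulated genes had 1 higher and 15 lower in WT and 13 differences toward higher, of which 1 was called with the Xist share and 2 without DMSO 2 or without WT bortezomib 1. Their knockout-labelled median of 0.29 turned to -0.13 without bortezomib 1 and -0.082 with the Xist share, on the WT side of 0 (WT median -0.87). Cxcl10 stood at 5.17 ± 1.85 to 1.97 ± 0.761 CPM in WT (difference 3.204, adjusted p = 0.00653), and Klf6 fell there from 104 ± 3.58 to 53.6 ± 4.24 CPM (difference 1.98, adjusted p = 0.002298).

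The 6 genes Ubb, Sqstm1, Hspb8, Bag3, Me1 and Impact kept their differences with each of the 12 libraries left out and with the Xist share.

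Some differences went with unequal starting levels. Gimap4 stood at 51.4 ± 5.82 CPM in knockout-labelled DMSO and 18.1 ± 2.63 CPM in WT DMSO libraries, and the bortezomib means were 14.8 ± 4.09 and 16.7 ± 3.37 CPM. Hspb8 started at 3.29 ± 1.05 and 8.82 ± 1.87 CPM. Among genes of at least 5 CPM in the highest group, the 6 largest called differences toward higher were in Nol3, Kif1a, Xist, the protocadherin Pcdhb16 (5.74), the receptor Gpr18 (5.21) and Fam46c, a poly(A) polymerase (5.17). In WT bortezomib libraries 1 to 3 Gpr18 was at 0, 0 and 0.149 CPM, so its fitted value depends on the prior count. Fam46c was at 4.596, 3.46 and 5.003 CPM under DMSO and 55.03, 48.4 and 12.1 CPM under bortezomib here and 5.47 ± 1.499 to 1.33 ± 1.401 CPM in WT. The 6 toward lower were in Hbb-bt (-4.14), Rad51c, a recombination gene (-3.48), Sdc1 (-3.46), Bok (-3.37), cyclin E1 (Ccne1, -3.05) and the polarity gene Scrib (-2.89). Rad51c lost its call without any 1 of 9 libraries (adjusted p up to 0.114), and Ccne1 with the Xist share (0.0565). Sdc1 rose in WT from 13.4 ± 1.96 to 27.5 ± 1.596 CPM and Hbb-bt from 56.3 ± 12.4 to 169.6 ± 20.4 CPM, while both fell here.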

How the data were processed

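RNA of sorted HSCs was sequenced from SMART-seq2 libraries, per the labels' protocols. The values are raw counts per gene as the authors deposited them, and the submitters' processing notes name HTSeq 0.7.1, STAR 2.6.1 and Bowtie 1.0.0. They also name GRCm38.p4 and GRCh38. For their roles, the annotation release and the strand setting nothing is given in the sources used here, and printed coordinates are GRCm38.

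Of 47729 genes, 16149 passed edgeR's filterByExpr over the 12 libraries of the 4 groups. One edgeR quasi-likelihood model (edgeR 4.0.16, limma 3.58.1, R 4.3.3) with TMM scaling gave the bortezomib effect in each genotype and their difference, with Benjamini-Hochberg adjustment over all genes tested and a threshold of 0.05. Alternatives were relative log expression scaling, DESeq2 1.42.0, limma voom, no filter, the 6 libraries alone, a replicate block, the Xist share, length and GC offsets, and each library left out. Libraries with the same replicate number did not deviate together (r = 0.10, -0.02 and -0.00), so the main model has no block. Within each knockout-labelled group no pair of libraries agreed within counting noise, and other pairs were not compared.

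Genes named are Atg5, the 12 largest rises and 12 largest falls without overlap among called genes of at least 5 CPM, up to 4 called members of each list by p, the 6 largest differences between genotypes each way, and single members as examples, among them members beyond the 4 chosen after their values were seen. The members and the 45 lists were chosen with earlier results of these data known. A list member is not reported here. On simulated data with 15566 genes tested, the model recovered 33% of 2-fold and 76% of 4-fold changes in the knockout-labelled comparison with 5 false calls, and 6% and 56% of differences between genotypes with 2 false calls. Counting intervals and floors cover counting error only.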

Additional observations from a re-analysis of the deposited data

Results flagged for a closer look

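The genes below were singled out because the response to bortezomib differed between the knockout-labelled and WT HSCs, by the edgeR interaction test at an adjusted p under 0.05. Values in brackets are the log2 fold change in knockout-labelled minus that in WT HSCs, and a value above 0 means a higher response in the knockout-labelled libraries. Among proteasome, ubiquitin and p97 genes the difference was found for Psmd1 (0.78), Psmd4 (0.77), Psmd3 (1.05), Zfand2a (1.66), Zfand5 (1.22), Nploc4 (1.23) and Ubb (1.18). Autophagy, chaperone and lysosome genes included Sqstm1 (2.34), Optn (2.33), Gabarapl1 (1.08), Atg7 (0.86), Ctss (1.26), Atp6v0a1 (1.35), Hspb8 (2.88), Bag3 (1.37), Dnajb2 (1.32) and Fkbp4 (-1.40). Stress and redox genes included Syvn1 (1.21), Slc3a2 (0.78), Nupr1 (1.40), Phgdh (-1.73), Shmt2 (-1.27), Impact (2.01), Me1 (2.76) and Srxn1 (1.33). Early response, cytokine and survival genes included Egr1 (1.66), Klf6 (1.98), Ier3 (2.13), Socs3 (1.89), Cxcl10 (3.20), Nfkb2 (2.01), Nfkbiz (2.20), Ccl4 (2.57), Birc3 (1.92), Skil (1.66) and Bok (-3.37). Cell cycle, replication and glycolysis genes, of which those named here were lower in the knockout-labelled response, included Pola1 (-1.77), Mcm5 (-2.14), Mcm3 (-1.46), Lig1 (-1.46), E2f1 (-2.01), Ccnd1 (-1.72), Ccne1 (-3.05), Tpi1 (-1.30) and Eno1 (-0.98). Stem cell, imprinted, immune and lineage genes included Vwf (-1.05), Sult1a1 (1.64), Grb10 (-0.97), Gimap4 (-1.67), Rhag (2.32), Itgb3 (2.09) and Hbb-bt (-4.14). The largest changes and differences included, toward higher, Nol3 (8.30), Kif1a (6.33), Bvht (2.92), Pla2g7 (2.39), Pir (2.10), Xist (7.23), Fam46c (5.17), Pcdhb16 (5.74) and Gpr18 (5.21), and toward lower, Syt3 (-2.74), Ddx4 (-2.78), Gamt (-2.70), Sdc1 (-3.46), Faah (-2.24), Rad51c (-3.48) and Scrib (-2.89). The fitted values of Nol3 and Kif1a, with 0 and 2 counts in the knockout-labelled DMSO libraries, depend on the prior count, and Xist differed between libraries of 1 group. Of these 68 differences, 32 kept their call with each of the 12 libraries left out, 32 with the Xist share as a covariate and 32 without DMSO 2 of the knockout-labelled libraries.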

How the results depend on the processing

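Counts of calls moved with the settings more than directions did. In knockout-labelled HSCs the 586 calls (326 higher, 260 lower) became 1238 (679 and 559) with DESeq2, 1577 (789 and 788) with limma voom, 1085 (552 and 533) without the low-count filter and 318 (227 and 91) with the 6 libraries alone, and length and GC offsets gave 408 lower. Leaving out 1 library gave 182 to 1040 calls, 112 to 472 higher and 70 to 568 lower, the fewest without DMSO 2 and the most without bortezomib 3. With the replicate block there were 780 calls, and 1889 differences between genotypes.

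The 1462 differences between genotypes (702 higher, 760 lower) became 2443 (1191 and 1252) with DESeq2, 4862 (2470 and 2392) with limma voom, 276 (151 and 125) with the Xist share and 2319 (1194 higher) without the filter, and length and GC offsets gave 1144 lower. Leaving out 1 library gave 352 to 2820 differences, 186 to 1230 higher and 166 to 1590 lower.

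Of 122 named genes that were called, 53 kept their call under all 14 alternatives. Of 630 list medians, 49 moved, in 21 lists. The signs of 43 list medians changed, in 14 lists, 7 of them with no called member, among them interferon-stimulated (0.29 to -0.13 without bortezomib 1), mitosis (-0.15 to 0.104 without bortezomib 3), B cell (0.37 to -0.46 with the 6 libraries), erythroid (0.15 to -0.41 with the Xist share) and neutrophil genes (0.14 to -0.47 without bortezomib 3). Among the named genes, those that changed sign under bortezomib were not called. Atg5 turned to 0.0035 with relative log expression scaling, 0.0034 with DESeq2, 0.00038 with the 6 libraries, 0.030 with the Xist share, and 0.0090, 0.0051, 0.092 and 0.092 without DMSO 1, DMSO 2, bortezomib 1 or bortezomib 2, and was lowest without bortezomib 3 (-0.22). Gpr18 turned to 0.25 with limma voom and 0.34 without DMSO 3, and was lowest without DMSO 2 (-0.60). Shfm1 turned to 0.051 with the Xist share and 0.013, 0.011 and 0.00033 without DMSO 2, bortezomib 1 or bortezomib 2, and was lowest without bortezomib 3 (-0.42). The cause was not tested. With 3 libraries a group, small changes in low genes were not detectable. In simulated data, with genes drawn from all levels, 33% of 2-fold changes were recovered and 6% of 2-fold differences between genotypes.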

Other observations

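Of 24 mitochondrial chaperones, proteases and import genes, edgeR called 0 under bortezomib (3.63% of all genes tested were called), with 1 higher and 3 lower at an unadjusted p under 0.05. DESeq2 called 0 and limma voom 3 lower, and the median log2 fold change was -0.12. In WT HSCs 11 of the 24 were called higher, with a median of 0.50, and 6 differences between the genotypes were called, toward lower in the knockout-labelled HSCs.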
